A study of Mus musculus with 16 samples.

Results

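The shared intronic regions were stretches of accessible chromatin that lay inside a protein-coding gene, away from any promoter, and that carried a called peak in every islet sample. They were chosen by measured values and by position. Overlapping or touching peaks of the 16 sample lists were merged, and a merged region was kept if all 16 samples had a called peak there. It also had to lie on chromosomes 1 to 19, be under 5 kb wide, lie over 3 kb from every annotated transcription start site (TSS), fall inside the body of a protein-coding gene and touch no exon. Of 362076 merged regions on chromosomes 1 to 19 and X, 42427 were called in all 16 samples, and 9877 of these met the rule, which is 23.3% of the shared regions.

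Pancreatic islets of 8 inbred mouse strains were assayed by ATAC-seq, a method that marks accessible DNA through the adapters that a transposase leaves in it. Each strain gave 1 female and 1 male sample of 50 islets. The strains were 129S1_SvImJ (129), A_J (AJ), C57BL/6J (B6), CAST_EiJ (CAST), NOD_ShiLtJ (NOD), NZO_HlLtJ (NZO), PWK_PhJ (PWK) and WSB_EiJ (WSB). The labels name no treatment, age or engineered allele. The study text counts CAST, PWK and WSB as wild-derived and the other 5 as classical strains. The 2 sexes of a strain are its only replicates, so a p-value for strain rests on the spread between a female and a male once sex is in the model.

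Introns of protein-coding genes hold many enhancers, which are stretches of DNA that bind transcription factors and act on a promoter at a distance. An enhancer inside an intron may act on its host gene or on a neighbour. In pancreatic islets, such elements are bound by factors of the endocrine lineage, among them FOXA, NEUROD1, RFX6, PDX1 and NKX6-1, and many sit in genes for hormone secretion. ATAC-seq measures that a region is open, and it names neither the factor bound there nor the gene that is served.

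The sequences that carry the main results are given here. They are 300 bases around the median summit over the 16 samples, on the plus strand of GRCm38 (mm10), read from the RefSeq assembly of C57BL/6J, so they hold no allele of another strain. The capitals mark matches to any of 18 short motifs listed further on. The first 3 are among the 4 regions with the smallest p-value for a strain effect. They lie in introns of Ptprk at chr10:28524349-28524648, Akap6 at chr12:52848077-52848376 and Spata16 at chr3:26969225-26969524. The other 3 are those of highest mean signal, in introns of Chl1 at chr6:103649046-103649345, Pms1 at chr1:53209473-53209772 and Pkhd1 at chr1:20477785-20478084.
Ptprk: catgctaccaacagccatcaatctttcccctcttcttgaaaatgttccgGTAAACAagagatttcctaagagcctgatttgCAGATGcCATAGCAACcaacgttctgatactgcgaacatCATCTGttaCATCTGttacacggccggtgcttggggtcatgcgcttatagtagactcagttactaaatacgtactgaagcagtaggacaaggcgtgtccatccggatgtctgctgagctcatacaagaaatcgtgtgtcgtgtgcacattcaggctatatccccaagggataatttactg
Akap6: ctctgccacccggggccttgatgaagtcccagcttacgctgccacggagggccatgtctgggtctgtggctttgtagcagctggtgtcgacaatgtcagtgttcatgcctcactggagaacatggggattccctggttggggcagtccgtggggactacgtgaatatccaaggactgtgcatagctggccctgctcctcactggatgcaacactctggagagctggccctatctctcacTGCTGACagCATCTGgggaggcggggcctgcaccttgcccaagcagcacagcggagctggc
Spata16: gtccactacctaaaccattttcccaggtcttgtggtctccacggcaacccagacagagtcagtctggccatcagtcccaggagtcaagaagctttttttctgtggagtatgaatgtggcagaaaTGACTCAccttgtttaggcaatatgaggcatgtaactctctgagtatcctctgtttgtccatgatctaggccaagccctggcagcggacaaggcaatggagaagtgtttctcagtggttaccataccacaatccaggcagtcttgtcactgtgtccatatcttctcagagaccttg
Chl1: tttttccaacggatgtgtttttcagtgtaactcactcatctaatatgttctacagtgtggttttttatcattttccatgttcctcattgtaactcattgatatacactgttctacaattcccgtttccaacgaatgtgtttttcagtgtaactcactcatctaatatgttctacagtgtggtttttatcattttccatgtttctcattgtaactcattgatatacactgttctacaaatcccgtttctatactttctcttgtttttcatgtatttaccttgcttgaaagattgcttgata
Pms1: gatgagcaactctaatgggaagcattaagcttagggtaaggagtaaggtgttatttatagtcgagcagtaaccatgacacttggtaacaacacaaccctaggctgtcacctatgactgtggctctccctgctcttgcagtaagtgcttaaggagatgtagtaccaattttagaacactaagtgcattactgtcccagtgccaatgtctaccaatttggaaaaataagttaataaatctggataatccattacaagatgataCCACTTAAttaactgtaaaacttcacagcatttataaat
Pkhd1: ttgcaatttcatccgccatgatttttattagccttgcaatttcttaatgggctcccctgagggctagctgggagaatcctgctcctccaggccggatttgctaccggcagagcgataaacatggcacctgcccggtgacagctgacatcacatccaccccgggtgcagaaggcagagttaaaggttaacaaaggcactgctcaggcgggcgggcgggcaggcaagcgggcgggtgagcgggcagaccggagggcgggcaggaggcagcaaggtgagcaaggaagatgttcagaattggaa

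The Ptprk window held a forkhead match, an RFX match and 3 matches to the NEUROD1 E-box. The window in Akap6 held a MAF match and an E-box match, that of Spata16 an AP-1 match, that of Pms1 an NKX2-2 match, and the windows of Chl1 and Pkhd1 held no match. A match is a description of these letters and not a bound site.

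The 9877 regions lay in 3551 protein-coding genes of 20780 on the autosomes. Of these genes, 1723 (48.5%) held 1 region, 1225 held 2 to 4 and 603 held 5 or more, and the last group held 5025 regions (50.9%). Ptprn2, which codes for a membrane protein of insulin granules, held the most, with 38 regions in 791 kb. It was followed by Nav2, a neuron navigator gene, with 37 in 701 kb, Pde4d, a cAMP phosphodiesterase, with 32 in 1504 kb, Kcnip4, a potassium channel partner, with 26 in 1135 kb, and Nrxn3, which codes for a synaptic adhesion protein, with 25 in 1612 kb. These are all long genes, and per 100 kb they held from 1.55 (Nrxn3) to 5.28 regions (Nav2). Only 159 regions lay in more than 1 protein-coding gene.

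The median region was 952 bases wide (quartiles 645 and 1424) and lay 16089 bases from the nearest TSS (quartiles 7974 and 33975). The width and distance limits come from the rule. The widest region, 4994 bases in Ak5 (chromosome 3, 152493324 to 152498317), had a mean scaled signal of 4.92, and the nearest one beyond the limit, 5008 bases in Nrcam, had 0.766. The region closest to a TSS lay 3002 bases away in Pigr and had a mean scaled signal of 2.00, and one in Nostrin that was left out at 3000 bases had 0.397. The GC content of the 200 bases around the summit had a median of 47.0%, as in the shared intergenic regions, whereas it was 58.5% in the shared promoters. The summits of the 16 samples were close together, with a median SD of 29.3 bases in the intronic and 26.7 bases in the promoter regions.

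Within the host genes, the regions were more frequent in intron 1. Of 9614 regions that fell in an intron of the transcript with the longest span, 2855 (29.7%) lay in intron 1, which made up 24.9% of the intronic bases that met the same rule. This is 16.4 regions per Mb in intron 1 and 12.9 per Mb in the later introns. Regions of 1 gene are not independent of each other, so no test was made. With the transcript of most exons, 28.1% of the regions and 23.3% of the bases were in intron 1.

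Being called in all 16 samples was uncommon inside introns and among all merged regions alike. Of all 362076 merged regions on chromosomes 1 to 19 and X, 42427 were called in all 16. Of 106316 intronic merged regions under the same limits, 47480 (44.7%) were called in 1 sample and 9877 (9.29%) in all 16, while each number from 5 to 14 samples held under 3.5%. The signal rose with the number of samples, which the peak threshold itself favours. The scaled signal, which is the summit signal of a peak divided by the sample's median over the 42427 shared regions, had a median of 0.156 in regions called in 1 sample, 0.406 in those called in 15 and 0.772 in those called in 16. The regions just outside the rule, called in 15 samples, numbered 2640, and the missing sample was the AJ male in 764, the NZO male in 625, the 129 female in 391 and the PWK male in 311. In these 4 lists the median signal of the shared regions was the lowest of the 16, at 32 to 58, against 136 in the CAST male.

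Intronic regions were weaker than promoters in each of the 16 samples. The median scaled signal of the shared intronic regions was 0.772 ± 0.0369 (SD, n = 16 samples) and ranged from 0.707 in the 129 female to 0.831 in the B6 male. That of the 15914 shared promoters, regions within 3 kb of a TSS, was 1.43 ± 0.169, and the 10941 shared intergenic and 2018 shared exonic regions had 0.847 ± 0.0560 and 0.886 ± 0.0297. The ratio of the intronic to the promoter median within a sample was 0.549 ± 0.0820, from 0.394 in the NZO male to 0.683 in the B6 male. The ratio of intronic to intergenic medians was 0.913 ± 0.0444 and it was below 1 in 16 of 16 samples. These are values of one set against another in the same samples, given without a test.

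**Figure D1:**
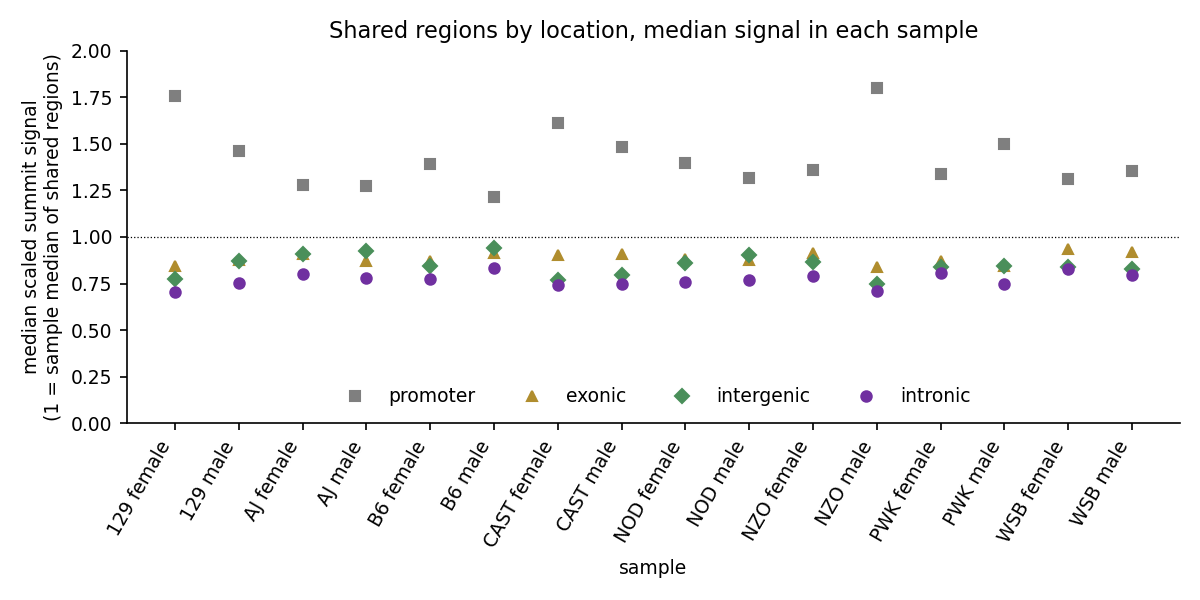
Each point is the median scaled summit signal of 1 class of shared regions in 1 sample, with samples on the x axis and scaled signal on the y axis, where 1 is the sample's median over all shared regions. The intronic points lie between 0.707 and 0.831 and below the promoter points in each sample, and no class crosses that of the promoters.

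Both sexes of a strain ranked the intronic regions in a similar way. Pearson's r of the log2 signal over the 9877 regions had a mean of 0.880 ± 0.0648 (SD, n = 8 strains) and ran from 0.777 in NZO to 0.960 in CAST. Over the shared promoters it had a mean of 0.943 ± 0.0350. Regions are not replicates, so these r only describe the lists, and the promoters cover a wider range of signal. The SD of the difference between female and male, centred on its median, was 0.486 ± 0.140 on the log2 scale for intronic and 0.418 ± 0.133 for promoter regions. In the strain lists of the study, which score how well peaks repeat between the sexes by an irreproducible discovery rate (IDR), a peak with an IDR of 0.05 or less overlapped 96.0% of the intronic regions in WSB, 93.6% in CAST and 83.6% in B6, but 66.1% in AJ and 55.2% in NZO.

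The study compared accessibility between the strains as one of several data types for mapping gene regulation in islets, and here the comparison was made in regions that are open in all of them. A region lost in any sample could not enter, so these are differences in degree. A strain effect was called in 4010 of the 9877 regions (40.6%) at an adjusted p-value under 0.05 (limma's moderated F test in a model of strain and sex, Benjamini-Hochberg adjusted over 42427 shared regions), and 5612 had an unadjusted p-value under 0.05. Across all shared regions the call was made in 34.9%. It was made in 27.9% of the shared promoters, 39.5% of the exonic and 40.9% of the intergenic regions, so the intronic share was close to those of the other regions away from promoters. Without CAST, 1784 regions (18.1%) were called, and with no centring of the samples 6052 (61.3%). Single samples also moved the count by over 1.5 times, to 2209 without the CAST female, 2240 without the CAST male, 2667 without the WSB female, 2610 without the WSB male and 6198 without the NZO female.

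Called regions spanned a median of 1.65 on the log2 scale between the highest and the lowest strain mean, which is 3.13-fold, and 1043 of the 4010 spanned at least 4-fold. The regions not called spanned a median of 0.96. The residual SD of a region had a median of 0.327 and the SD between strain means one of 0.407, both on the log2 scale. In the promoters these were 0.287 and 0.343. By distance to the TSS, the share called was 39.8% at 3 to 10 kb (3249 regions), 40.8% at 10 to 30 kb, 41.0% at 30 to 100 kb and 42.9% beyond 100 kb (499 regions). Intron 1 had 41.9% and the later introns 39.98%. In 4 bins of mean signal that each held as many of all shared regions, the intronic share was 37.8, 45.4, 42.6 and 33.5% from the weakest to the strongest, and the promoter share was 35.8, 36.7, 29.5 and 19.5%.

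CAST was the strain most often at an extreme. Among the 4010 called regions it had the lowest mean in 1216 (30.3%) and the highest in 666 (16.6%), so that CAST was at 1 end or the other in 1882 (46.9%). AJ was highest in 643, WSB in 632 and PWK in 626, against 238 for 129. After CAST, the lowest was PWK in 552, 129 in 486 and NZO in 456. Over all called shared regions, CAST was lowest in 30.1% and highest in 15.1%, which is close to the intronic shares. B6, whose genome is the reference to which all reads were aligned, was highest in 422 (10.5%) and lowest in 225 (5.61%).

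**Figure D2:**
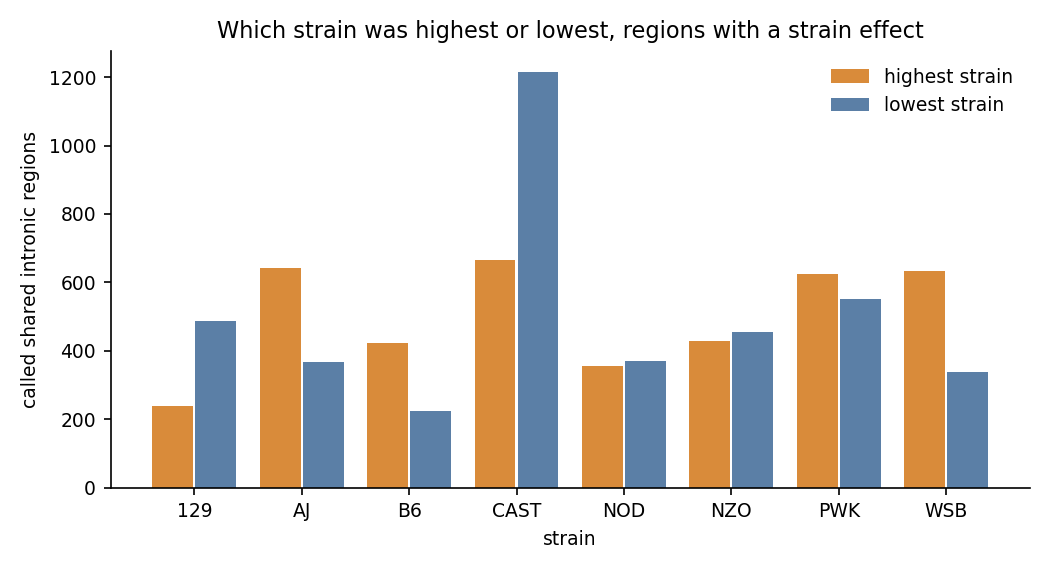
Bars give the number of the 4010 shared intronic regions with a strain effect in which each strain, on the x axis, had the highest or the lowest mean of the 8. The CAST bar for the lowest mean reaches 1216, above that of each other strain, and 129 has the shortest bar for the highest mean, at 238.

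The share with a strain effect was not even over the chromosomes. It was 76.5% on chromosome 19 (176 of 230 regions) and 54.5% on chromosome 11 (115 of 211), and 34.8 to 46.2% on each of the other 17 autosomes. All shared regions of these 2 chromosomes, of any class, had 70.1 and 44.2%, and those of chromosome 18 had 48.6%. The signal of a whole chromosome moved with strain. Relative to the mean of the 16 samples, the median centred log2 signal of the intronic regions on chromosome 19 was -0.58 and -0.60 in the B6 female and male and -0.55 and -0.47 in those of 129, whereas it was 0.50 and 0.38 in WSB and 0.35 and 0.35 in AJ. On chromosome 11 it was -0.41 and -0.64 in PWK and 0.25 and 0.21 in CAST. On chromosome 18 it was -0.36 and -0.32 in CAST and 0.20 and 0.32 in B6. The 2 sexes of a strain lay on the same side in each of these cases.

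When each sample was centred within each chromosome, an alternative chosen after these values were seen, 33.9% of the regions on chromosome 19 and 31.3% on chromosome 11 were called, and 3724 regions (37.7%) in all. The intronic share then stood beside 24.0% in promoters and 37.8% in intergenic regions. The peak lists themselves were uneven as well. On chromosome 19 the B6 male list had calls in 1560 merged regions and the WSB male list in 3468, beside 8256 and 9609 on chromosome 1. On chromosome 11 the PWK male list had calls in 2155 and the CAST male list in 5209, beside 11321 and 9829 on chromosome 1. What moved the signal of these chromosomes was not tested.

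**Figure D3:**
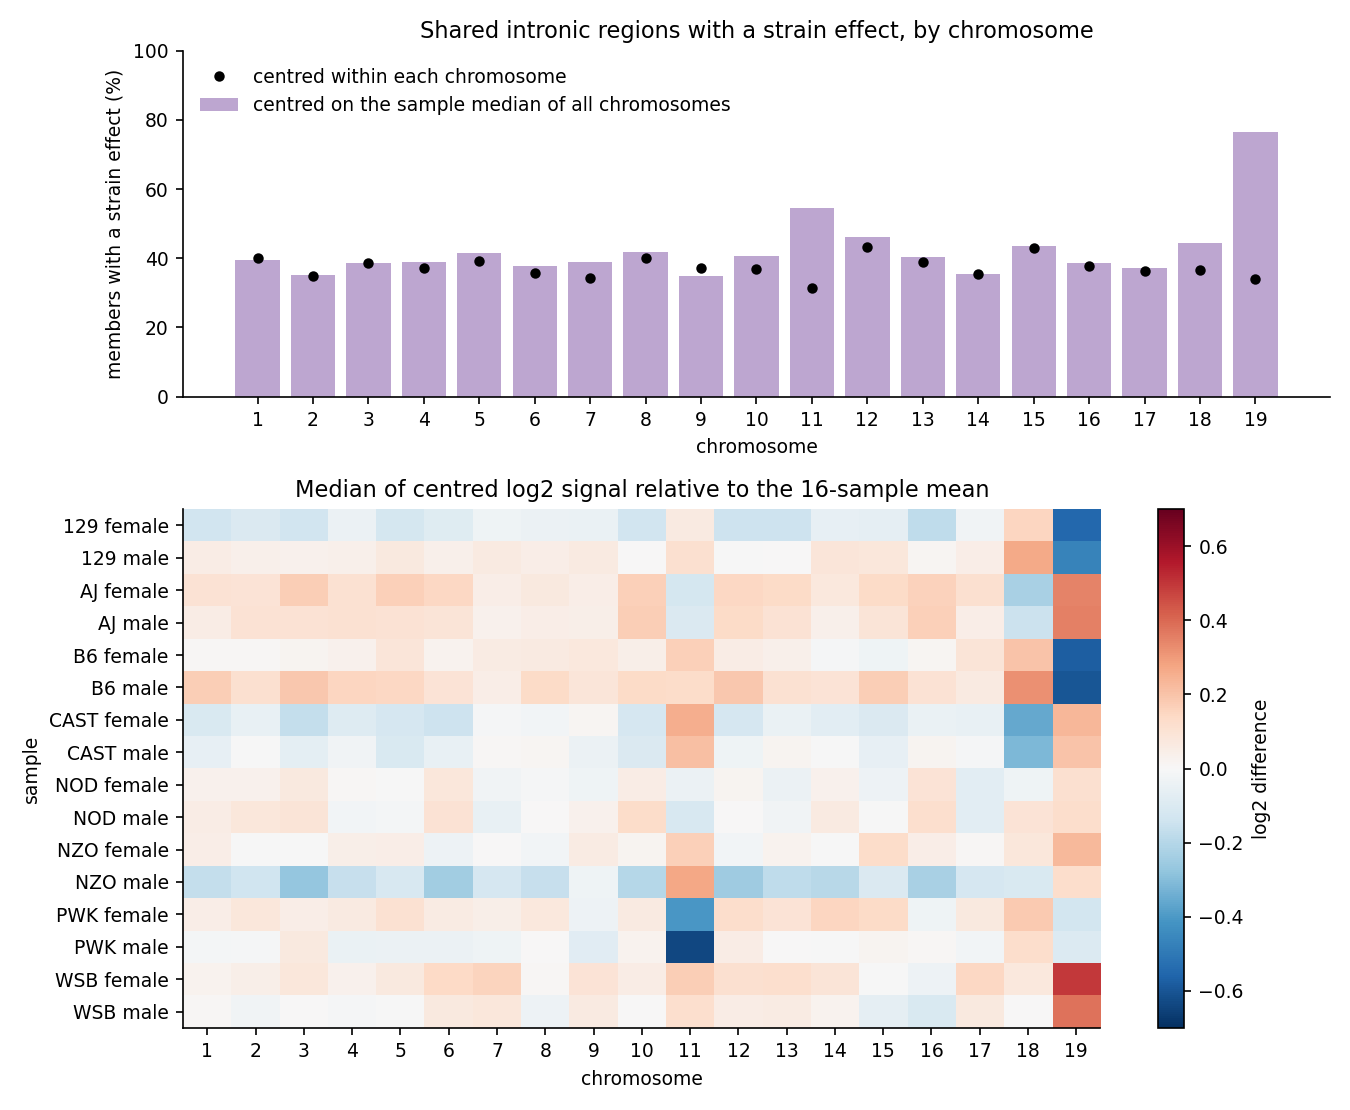
In the upper plot, bars give the percentage of shared intronic regions with a strain effect on each autosome and black points the same after centring within each chromosome. The lower plot shows, for each sample and chromosome, the median centred log2 signal relative to the mean of the 16 samples. Chromosome 19 has the highest bar, at 76.5%, and its point is at 33.9%, and its colours are blue in B6 and 129 and red in WSB and AJ.

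The smallest p-value belonged to a region in intron 13 of Ptprk, a receptor-type tyrosine phosphatase gene (chromosome 10, 28523716 to 28525448). Its scaled signal in the female and the male was 7.63 and 7.59 in PWK and 7.21 and 7.91 in WSB. It was 0.143 and 0.0956 in CAST, and in the 5 classical strains it ran from 0.552 in the 129 female to 1.40 in the NZO male. The wild-derived strains thus held both the highest and the lowest values, with no overlap between them and the classical strains on either side. The span of 5.91 on the log2 scale was the largest among called regions (limma adjusted p = 9.76e-07), and the adjusted p stayed at or below 3.36e-05 in the 32 alternatives that could test it.

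A region in intron 2 of Akap6, which codes for an anchoring protein of protein kinase A, divided the strains into 2 sets (chromosome 12, 52847714 to 52848902). The female and the male had scaled signals of 7.52 and 5.45 in B6, 6.38 and 7.30 in CAST, 5.16 and 4.53 in NZO and 3.41 and 3.35 in 129. They had 0.692 and 0.527 in AJ, 0.593 and 0.537 in NOD, 0.71 and 0.906 in PWK and 0.651 and 0.648 in WSB. The sets did not overlap, and each held classical and wild-derived strains (limma adjusted p = 1.62e-06).

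A region in intron 2 of Palmd, the palmdelphin gene, was low in PWK alone (chromosome 3, 116949162 to 116952422). PWK had scaled signals of 0.210 and 0.188 and the other 14 samples 3.47 to 6.12 (limma adjusted p = 2.76e-06). Without PWK no strain effect was called (adjusted p = 0.487). In the last intron of Spata16, a testis gene, PWK was the high strain, with 11.4 and 9.59, and the next highest samples were the NZO male at 1.40 and the WSB female at 0.764 (chromosome 3, 26968806 to 26970740, limma adjusted p = 3.81e-06). CAST had 0.181 and 0.199 there, and the span of 5.70 on the log2 scale was the second largest among called regions.

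CAST was the strain at 1 end in regions of Psd3 and Dync1i1, and of these 2 it stood alone only in that of Dync1i1. In an intron of Psd3, a gene for an exchange factor of the small GTPase ARF6 (chromosome 8, 67996532 to 67999199), CAST had 5.30 and 6.78, PWK 2.06 and 1.62 and NZO 1.57 and 1.42, and the other 10 samples lay between 0.274 and 0.621. Within Dync1i1, which codes for a dynein subunit (chromosome 6, 5819439 to 5820465), CAST had 0.133 and 0.132 and the other samples 1.21 to 3.28. Both had a limma adjusted p of 4.95e-06, and that of Dync1i1 was 0.0733 without CAST. The call in Psd3 was made in all 31 alternatives that could test it, leaving out CAST among them.

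The last 2 of the 8 regions with the smallest p lie in sequence that occurs more than once in the genome. In an intron of Gm3002 (chromosome 14, 3947802 to 3950342) PWK had 11.1 and 15.1, 129 had 4.40 and 5.09 and CAST 0.552 and 0.728 (limma adjusted p = 4.95e-06). The 5 words of 25 bases taken across its summit occurred at 4 to 37 places each in the assembly, with a median of 29. Within Fabp12, a fatty acid binding protein gene (chromosome 3, 10249203 to 10249854), CAST had 0.295 and 0.368 and the other samples 1.61 to 4.53 (adjusted p = 6.51e-06), and the words occurred at 1 to 93 places, with a median of 54. The words are shorter than the reads, and whether the reads of these regions could be placed at 1 locus was not tested. The words of the other 6 regions had 1 or 2 places each.

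**Figure D4:**
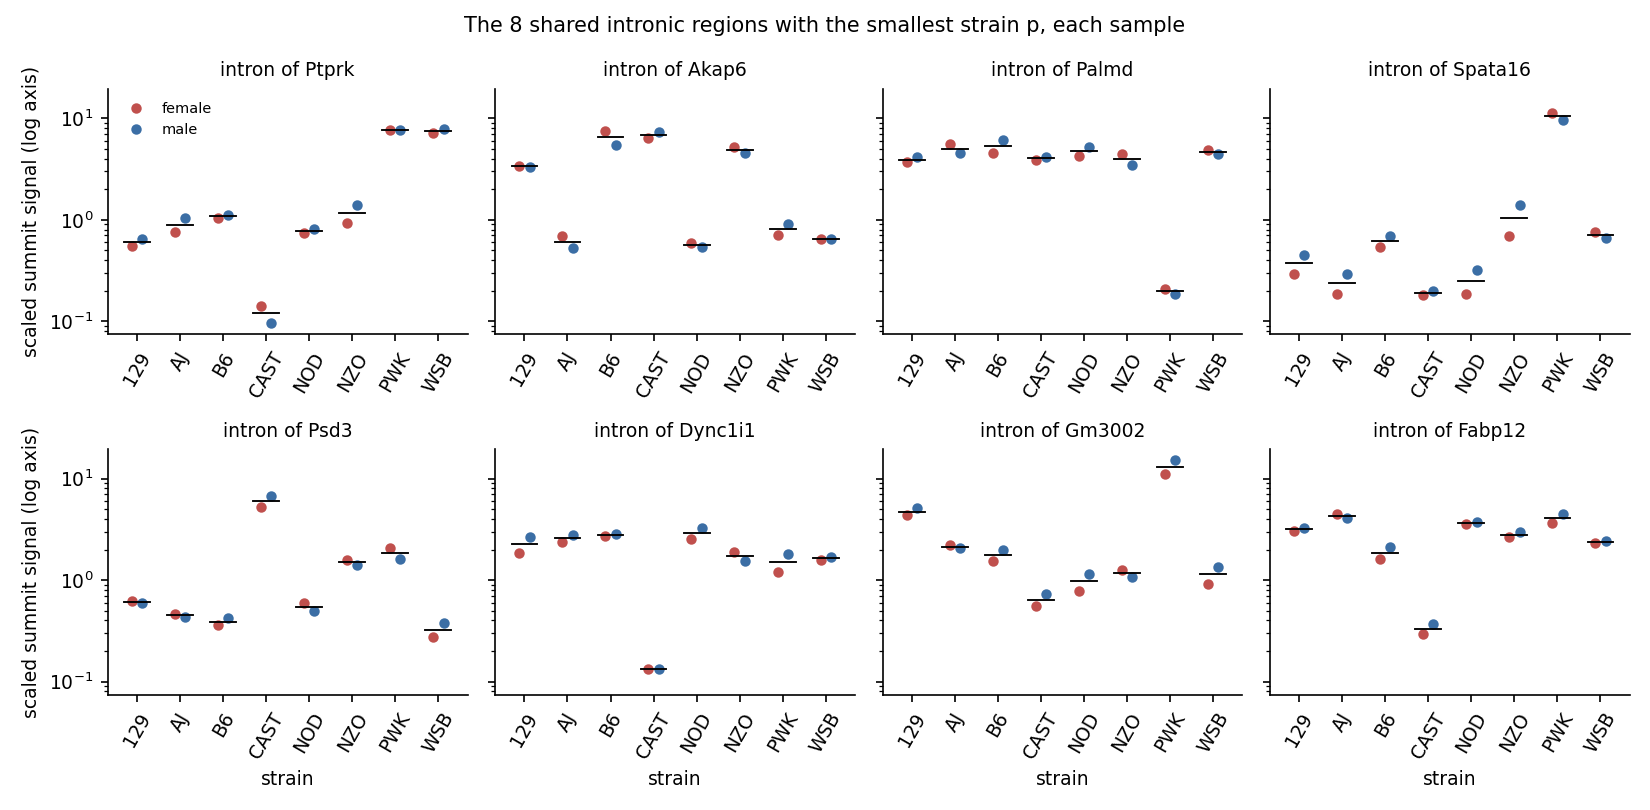
Each plot shows 1 of the 8 shared intronic regions with the smallest strain p-value, with strains on the x axis and scaled summit signal on a log y axis. Points are single samples, red for female and blue for male, and the line is their mean. The points of a strain lie close together, which the choice by p-value favours. In Ptprk, PWK and WSB reach 7.21 to 7.91 and CAST lies at 0.0956 to 0.143.

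The regions of highest mean signal were led by 1 that stood far from the rest. A region of 284 bases in an intron of Chl1, a cell adhesion gene (chromosome 6, 103649038 to 103649321), had a mean scaled signal of 284. Its values ran from 140 in the CAST male to 542 in the PWK male, with a limma adjusted p of 0.0233. The call was made in 24 of 34 alternatives and was lost with no centring (adjusted p = 0.940). Words of 25 bases at its summit occurred at 1 to 7 places in the assembly, with a median of 4. Whether its reads could be placed at 1 locus was not tested, and no list of regions known to collect reads was applied. No word of the region was found in the mitochondrial genome. The next were a region in Pms1, a mismatch repair gene (mean 14.5, from 4.85 in the NZO male to 23.5 in the AJ male), 1 in Pkhd1, a gene of ductal epithelium (10.9), 1 in Fat3, an atypical cadherin gene (10.8), and 1 in Magi2, a scaffold gene (10.5). The adjusted p for strain of these 4 was 0.0576 to 0.0714, and each of their words had 1 place. A mean scaled signal over 5 was reached by 108 regions (1.09%).

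In the genes with the most regions, 21 of 38 regions of Ptprn2 had a strain effect, 13 of 37 in Nav2, 13 of 32 in Pde4d, 11 of 26 in Kcnip4 and 14 of 25 in Nrxn3, against 34.9% of all shared regions. The smallest p in Ptprn2 was in intron 2 (chromosome 12, 116717232 to 116719448), where CAST had 0.305 and 0.235 and the other samples 0.938 to 2.23 (limma adjusted p = 0.000281, and 0.343 without CAST). In Nrxn3 (chromosome 12, 89499531 to 89500355), WSB had 1.49 and 1.82 and PWK 1.26 and 1.44, above the other 12 samples at 0.236 to 0.915 (adjusted p = 0.000143). In Kcnip4 PWK was low, with 0.290 and 0.50 against 0.948 to 3.16 (adjusted p = 0.00272, and 0.208 without PWK). In Nav2 CAST was low, with 0.590 and 0.485 against 1.19 to 2.06 (adjusted p = 0.00228, 0.621 without CAST and 0.0763 with the deposited mean signal). In Pde4d (chromosome 13, 109915459 to 109916358) AJ was the high strain, with 1.88 and 2.13, and CAST the low one, with 0.267 and 0.287 (adjusted p = 0.000123). A neighbouring strain in that order could not always be told apart, since PWK (0.50 and 0.375) and NOD (0.407 and 0.439) overlapped there.

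Gene lists chosen with earlier results of these data known were read beside the share called of the 9877 intronic regions, 40.6%, and of all shared regions, 34.9%. Of 25 islet transcription factor genes, 8 held a region, 31 in all, of which 15 (48.4%) had a strain effect. Within St18, the gene of a zinc finger factor, WSB had 3.77 and 3.74 and the other samples 0.531 to 1.77 (chromosome 1, 6637864 to 6640223, limma adjusted p = 0.00214, and 0.0967 without WSB). Rfx6, which directs endocrine differentiation, held 2 regions. In 1 of them (chromosome 10, 51722400 to 51722960) CAST was lowest, with 0.219 and 0.169, and WSB highest, with 1.18 and 0.966 (adjusted p = 0.00336, and 0.0541 without CAST), and the other had a higher signal, 2.35 on average, and no strain effect was called in it (adjusted p = 0.261). In Tshz1 PWK had 0.871 and 1.00 and the other samples 0.244 to 0.506 (adjusted p = 0.00675). This call on chromosome 18 was lost without PWK (adjusted p = 0.282), without the PWK male (0.0529), with no centring (0.0859) and with the deposited mean signal (0.0600), and it was kept with centring within each chromosome (0.0150). The 8 genes with a region were 52.7 to 421 kb long. Pdx1, Nkx6-1, Mafa and Neurod1 held none, but they are 2.74 to 6.86 kb long, and the rule leaves little or nothing of so short a gene.

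Of 30 insulin secretion and granule genes, 16 held a region, 110 in all and 43 (39.1%) with a strain effect. The smallest p was in an intron of Rapgef4, the cAMP sensor EPAC2 that promotes insulin release (chromosome 2, 72091781 to 72092825). The female and the male had 2.87 and 2.81 in B6, 2.57 and 2.44 in NZO, 2.24 and 2.29 in 129 and 2.17 and 2.39 in WSB. They had 1.00 and 0.691 in CAST, 0.629 and 0.469 in PWK, 0.415 and 0.509 in AJ and 0.419 and 0.354 in NOD. The 2 sets of 4 strains did not overlap, and the call was made in all 33 alternatives (limma adjusted p = 1.11e-05). In the strongest region of the list, 4200 bases in Ptprn2 with a mean scaled signal of 5.08, no strain effect was called (adjusted p = 0.303) and the span was 0.63 on the log2 scale. Abcc8, the gene of the sulfonylurea receptor, held 2 regions, of which 1 had a strain effect.

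Of 28 genes at loci for type 2 diabetes, 17 held a region, and 37 of 93 regions (39.8%) had a strain effect. Ube2e2, a ubiquitin-conjugating enzyme gene, had 6 of 7. In 1 of these (chromosome 14, 18669147 to 18670189), 129 had 0.362 and 0.203 and CAST 0.333 and 0.434, while WSB had 1.75 and 1.42 (limma adjusted p = 0.00138). In another (18773474 to 18774231), 129 and CAST had 0.191 to 0.241 and the other samples 0.406 to 1.22 (adjusted p = 0.00162). In Zfand3 AJ was lowest, with 0.354 and 0.127 (adjusted p = 0.00432, and 0.199 without AJ). The strongest region of this list, in Ptprd, had a mean of 8.67 and an adjusted p of 0.102.

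Of 24 calcium and cAMP signalling genes, 15 held 103 regions, 36 of them (35.0%) with a strain effect. Within Itpr1, an IP3 receptor gene, CAST had 0.181 and 0.250, PWK 0.258 and 0.344 and the other samples 0.509 to 0.991 (limma adjusted p = 0.000931). The strongest region, in Camk1d, had a mean of 6.43, with the 129 female at 15.1 and the male at 5.57, and no strain effect (adjusted p = 0.272). Of 24 general housekeeping, signalling and chromatin genes, 16 held 101 regions, of which 30 (29.7%) were called. In an intron of Zbtb20, a zinc finger repressor gene, CAST had 4.16 and 4.04 and PWK 3.47 and 3.78, and the other 12 samples 0.600 to 1.30 (adjusted p = 0.000373). In Ncoa2, a nuclear receptor coactivator gene, NOD was highest in 1 region, with 1.22 and 1.30, and B6 lowest, with 0.274 and 0.301 (adjusted p = 0.000717). In Arid1b, a chromatin remodelling subunit gene, WSB was highest, with 3.21 and 2.9 (adjusted p = 0.00169).

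Markers of other cells of the pancreas were read in the same way, since islets hold vessels and immune cells and can carry exocrine tissue. In bulk samples, fewer cells of a type and a lower signal per cell cannot be told apart. A peak within 3 kb of a TSS was called in all 16 samples for 7 of 10 islet endocrine genes. Ins1, Ins2, Gcg and Iapp were among them. Such a peak was called in 1 sample for Sst, in 2 for Ppy and in none for Pyy. It was called in all 16 for 7 of 10 duct, 4 of 12 leukocyte, 4 of 12 stellate and fibroblast, 2 of 12 acinar and 0 of 12 endothelial genes. No sample had such a peak at the acinar genes Cel, Ctrb1 and Gp2 or at the endothelial genes Flt1, Eng, Plvap, Tie1 and Emcn. Of the other endothelial genes, Ptprb had one in 12 samples and Kdr, Tek and Cdh5 in 11 each. Erg had one in 6, and Pecam1 and Robo4 in 1 each. Among acinar genes, Nr5a2 and Bhlha15 had one in 16, Ptf1a in 14, Rbpjl in 8 and Pnlip in 5. Cela1 and Amy2a5 had one in 2 samples each, and Cpa1 and Prss2 in 1 each. Endothelial genes still held 4 shared intronic regions, 3 with a strain effect. In intron 1 of Tek, the angiopoietin receptor, CAST had 0.543 and 0.654 and the other samples 1.91 to 6.65 (limma adjusted p = 0.000192, and 0.126 without CAST). In Ptprb PWK had 3.61 and 3.25 and CAST 2.9 and 3.15, above the others at 0.945 to 2.11 (adjusted p = 0.00577). In Pecam1, on chromosome 11, the adjusted p was 0.0221, and 0.151 with centring within each chromosome.

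Duct genes held 17 regions, 9 with a strain effect, of which Pkhd1 had 5 of its 7. In intron 35 of Pkhd1 (chromosome 1, 20470433 to 20471600) CAST had 0.267 and 0.316 and the other samples 0.750 to 4.35 (limma adjusted p = 0.000516, and 0.0707 without CAST). Leukocyte genes held 5 regions, of which 1 was called, in Lyn, a kinase of B cells that is also found elsewhere (chromosome 4, 3760372 to 3761775), where PWK had 3.10 and 2.25 and the next highest sample, the NZO male, had 1.55 (adjusted p = 0.00025). Stellate and fibroblast genes held 2, in Rgs5 and Acta2, both called (adjusted p = 0.0140 and 0.00616). The call in Rgs5 was lost with no centring (adjusted p = 0.0580), and that in Acta2, on chromosome 19, without NOD (0.103) and with the deposited mean signal (0.0959), though not with centring within each chromosome (0.0100). The acinar list held 3, all in Nr5a2, none called. The part of other cell types in the strain effects was not tested.

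Wild-derived and classical strains were then compared over the 8 strain means with limma. Of the shared intronic regions, 1 was higher and 2 were lower in the wild-derived strains, while 776 and 780 had an unadjusted p under 0.05 in each direction. Of all shared regions, 0.00707% were called higher and 0.0259% lower. The higher one lay in an intron of Hk1, which codes for hexokinase 1 (chromosome 10, 62311531 to 62312102), with scaled signals of 1.77 ± 0.390 (SD, n = 6 samples) in wild-derived and 0.593 ± 0.160 (n = 10) in classical samples. Its log2 difference was 1.59 ± 0.22 (SE, limma adjusted p = 0.0391), and it was called in 12 of 30 alternatives. The lower ones lay in intron 1 of Gbe1, the glycogen branching enzyme gene (chromosome 16, 70351457 to 70353367), and in 1700113H08Rik (chromosome 10, 87126600 to 87127599). In Gbe1 the wild-derived samples ranged from 0.468 to 0.844 and the classical ones from 1.35 to 3.52, a difference of -2.01 ± 0.22 (adjusted p = 0.0127, called in 28 of 32 alternatives). In 1700113H08Rik they ranged from 0.0795 to 0.375 and from 0.638 to 1.04, a difference of -2.05 ± 0.27 (adjusted p = 0.0302, called in 20 of 30). The classes did not overlap in any of the 3 regions, but these were picked by this same test. Such separation was not counted in the other regions. Without WSB 113 regions were called, 29 higher and 84 lower.

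No sex effect was called in the shared intronic regions. With limma's moderated test in the same model, 0 were higher and 0 lower in females, and 266 and 210 had an unadjusted p under 0.05. Of all shared regions, which include chromosome X, 0.00943% were called higher in females and 0% lower. The count stayed at 0 in each alternative tried.

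Motifs were searched on both strands in the 200 bases around the summit. The E-box of NEUROD1 and NEUROG3 (CAGATG) was in 24.1% of the shared intronic regions, 23.3% of the intergenic and 13.1% of the promoters. The AP-1 motif (TGANTCA) was in 17.3, 14.8 and 8.02%, the forkhead motif of FOXA (TGTTTAC) in 8.90, 7.65 and 3.48%, and the MAF motif (TGCTGAC) in 5.74, 5.92 and 4.22%. The motifs of RFX (GTTGCNATG), HNF1 (GTTAATNAT) and PDX1 and NKX6-1 (TAATTAC) were in 2.56, 2.42 and 3.21% of the intronic regions and in 1.64, 0.999 and 1.17% of the promoters. At least 1 of the 18 motifs was in 58.8% of the intronic, 56.3% of the intergenic and 55.2% of the promoter regions. The motifs known from promoters went the other way. ETS (CCGGAAG) was in 0.921% of intronic regions and 10.0% of promoters, the GC-box of SP and KLF factors (GGGGCGGGG) in 0.587 and 10.9%, and NRF1 (GCGCATGCG) in 0.051 and 1.7%. The base composition of the classes differs, as given above, and its part in these shares was not tested.

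The number of samples that opened an intronic region also went with the motifs, though not in the same direction for all. Of the 47480 intronic regions called in 1 sample, 4.03% held the forkhead, 0.798% the RFX and 18.05% the NEUROD1 motif, all below the shares in the 9877 shared ones. The AP-1 motif was in 13.9% of the regions called in 1 sample, in 22.9% of those called in 8 to 15 and in 17.3% of the shared ones, so it was most frequent in between. The TEAD motif (GGAATGT) was in 3.32, 2.31 and 2.17% in the same order, and the GATA motif in 3.38, 2.76 and 2.88%. The MAF motif was in 4.34, 6.27 and 5.74%, that of NKX2-2 in 2.81, 3.38 and 3.21% and that of PDX1 and NKX6-1 in 2.06, 3.34 and 3.21%. Among motifs not yet set beside promoters, that of USF and CLOCK (CACGTG) was in 3.88% of shared intronic and 6.78% of shared promoter regions. That of NKX2-2 (CCACTTNA) was in 3.21 and 1.86%, and that of GATA factors (AGATAAG) in 2.88 and 1.33%. The motif of CTCF (AGNGGGCGC) was in 1.69 and 4.05%, that of HNF4 (CAAAGTCCA) in 0.648 and 0.371%, the cAMP response element CRE (TGACGTCA) in 0.537 and 2.26% and that of YY1 (AAGATGGCG) in 0.142 and 1.23%. The letters of the motifs can overlap, as in those of CRE and AP-1, which share the letters TGA at 1 end.

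Strain effects were not equally frequent with each motif. They were called in 47.7% of the 1713 intronic regions with an AP-1 motif and in 39.1% of those without it, and the former had a median scaled signal of 0.931 against 0.772. With a USF and CLOCK motif 48.8% of 383 were called, with the HNF4 motif 60.9% of 64, with the CTCF motif 28.7% of 167 and with the HNF1 motif 34.7% of 239. With the NEUROD1 motif it was 42.2% of 2384 and with the forkhead motif 40.4% of 879, close to the 40.6% of all intronic regions. With 0, 1, 2 and 3 of the 18 motifs the share was 38.4, 41.0, 44.2 and 46.7%, and the median scaled signal 0.758, 0.810, 0.852 and 0.916. The 35 regions with 4 or more motifs broke both series, with 45.7% and 0.769. These are shares of regions, with no test.

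**Figure D5:**
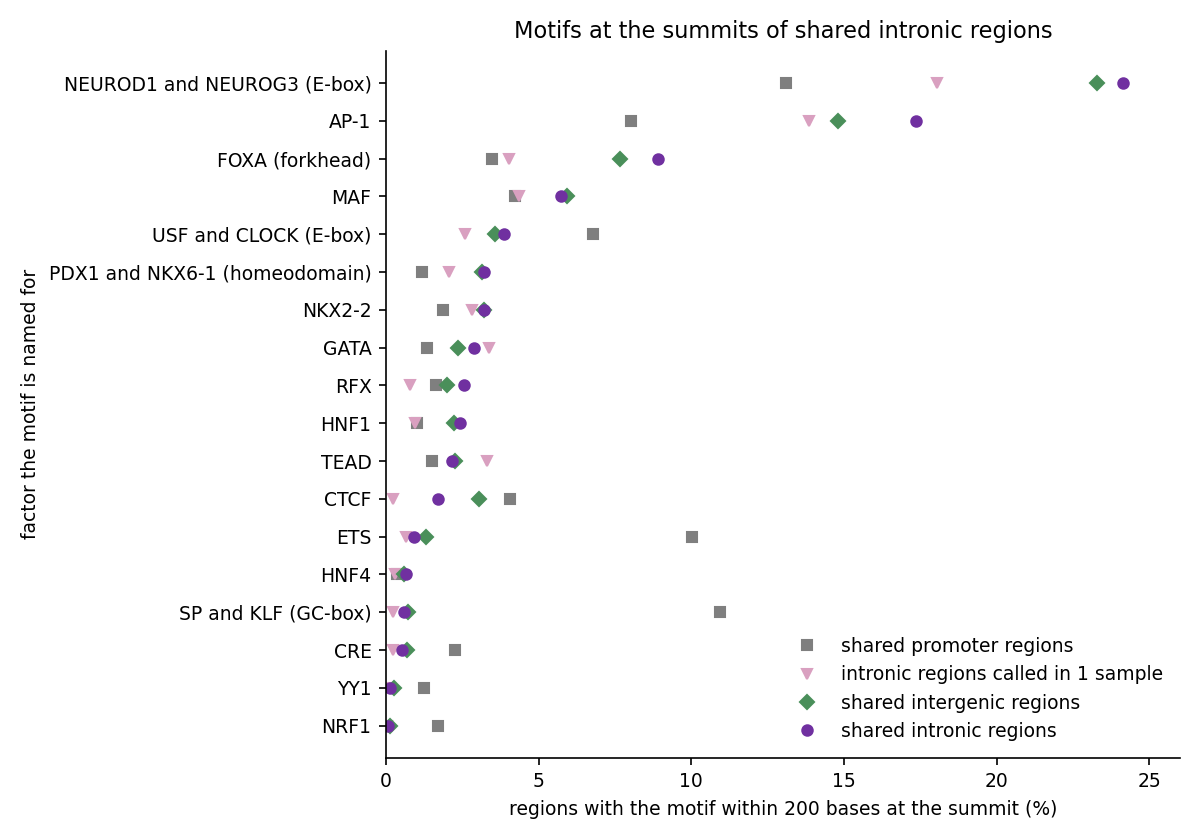
Points give the percentage of regions, on the x axis, with each of 18 motifs, on the y axis by the factor it is named for, within the 200 bases around the summit, in shared intronic, intergenic and promoter regions and in intronic regions called in 1 sample. Shared intronic and intergenic points lie close together, as at 24.1 and 23.3% for NEUROD1 and NEUROG3, whereas the promoter points for ETS and the GC-box lie to the right, at 10.0 and 10.9%.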

How the data were processed

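Islet ATAC-seq peak lists of 16 samples were used. Per the labels and methods, the authors trimmed reads (cutadapt 2.0), aligned them to mm10 (Bowtie2 2.3.4.1), removed duplicates (Picard 2.9.2) and called the peaks of each sample with MOSAiCS (FDR 0.05). A shift for the transposase cut was not stated. The deposited summit signal is unscaled and the deposited mean signal served as an alternative. The −log10 IDR of the authors' strain lists was used for overlap alone. Read totals were not used here, and the lists give no depth per sample. The lists used are those aligned to the B6 genome, and the effect of this on the values reported was not tested here.

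Peaks were merged in Python 3.11.15 and annotated with GENCODE M21 on GRCm38. Values were log2(summit signal + 1), centred on each sample's median over 42427 shared regions, and fitted with limma 3.58.1 (R 4.3.3) for strain and sex over all of them, strain classes on strain means. Low signals make a fold change too small on this scale. The fit was tested on simulated data. Regions named in the text are the 8 of smallest strain p, the 2 of largest span, the 5 of highest signal, the smallest p in the 5 genes with most regions, class calls, and for each gene list the 3 of smallest p and the strongest. The members and lists were chosen with earlier results of these data known. Markers were read at promoters. The alternatives are given at the end. Some items are not reported here.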

Additional observations from a re-analysis of the deposited data

Results flagged for a closer look

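In 12 sets of samples (the 2 strain classes and the 2 sexes, for 3 measures), the same sample stood apart in 2. The share of the shared intronic regions that were among the 60000 strongest peaks of a list was 70.5% in the NZO male, against 87.3% in the next lowest of the 10 classical samples and 83.8% in the next lowest of the 8 males. Chance gives about 1 in 20 such sets, and the 2 found are the same sample and measure in sets that overlap. The NZO male also had the lowest ratio of intronic to promoter signal, and NZO the lowest r between the sexes. Without NZO, male and female alike, 5292 regions had a strain effect.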

How the results depend on the processing

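The number of shared intronic regions was 4852 with the 60000 strongest peaks of each list and 366 when 50% of a region had to be covered in each sample. It was 9938 with exons of protein-coding genes only, 10867 with distance to gene starts only, 12517 with at least 15 samples and 9873 with peaks merged only where they overlap, an alternative chosen after seeing the data. Strain effects were called in 6052 regions with no centring, 1942 with the 60000 strongest peaks, 148 with 50% coverage, 1494 above the median signal and 1784 without CAST. Fewer regions enter the 3 limited by peak number, coverage or signal, where the shares were 40.02, 40.4 and 43.2%, and for the others the cause was not tested. The strain classes differed in 20 regions with no centring, 6 with the deposited mean signal, 1 with the 60000 strongest peaks, 0 with 50% coverage, 1 above the median signal, 0 without 129, 0 without B6, 1 without NZO and 113 without WSB, and the cause was not tested. Leaving out 1 sample gave 2209 to 6198 regions with a strain effect, 0 to 4 that differed between classes and 0 with a sex effect. The ratio of intronic to promoter signal was 0.643 with the mean signal and 0.664 with the 60000 strongest peaks. At least 1 motif was found in 41.0% within 100 bases and 75.3% within 400, since windows differ in length, and 28.1% of regions were in intron 1 of the transcript with the most exons. Of 42 named regions with a strain effect, 22 were called in every alternative that could test them, and 41 with centring within each chromosome, all but that in Pecam1. The sex test compares the female and the male within each strain, since strain is in the model. The labels give no replicate numbers, so no other pairing was made.

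With 1 female and 1 male per strain, a strain mean rests on 2 samples, and animals behind a sample are not told apart. Centring sets the median shared region to the same level in each sample, and with no centring the strain calls rose.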
